A study of Mus musculus with 21 samples.

Results

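The genes described here write or erase trimethylation of histone H3 at lysine 27 (H3K27me3). They are the 2 demethylase genes *Kdm6a* and *Kdm6b* and 8 genes of Polycomb repressive complex 2 (PRC2), namely *Ezh1*, *Ezh2*, *Eed*, *Suz12*, *Rbbp7*, *Jarid2*, *Mtf2* and *Phf19*. They were chosen by function, with earlier results of these data known, and all 10 were found by Ensembl identifier among the 55400 genes of the count table. The cells were wild-type C57BL/6 mouse embryonic stem cells (mESCs), kept on mitomycin-C-treated mouse embryonic fibroblasts and turned into motor neurons as embryoid bodies, with 1 μM retinoic acid and 0.5 μM of the Hedgehog agonist SAG from day 2 until the change at D5 to medium without either. DAPT, a γ-secretase inhibitor that blocks Notch signalling, was added at 5 μM from day 4, so in the comparisons of later stages with D4 time and DAPT cannot be told apart, and at D6 neither can the lack of retinoic acid and SAG. RNA-seq covered 4 untreated groups, D4, D4H8 (8 hours after D4), D5 and D6, and 3 groups given GSKJ4, an inhibitor of the Kdm6 demethylases, for the day before collection (D4H8+GSKJ4, D5+GSKJ4 and D6+GSKJ4), each with 3 biological replicates. One ES cell line was used, and no source used here gave the GSKJ4 dose of these cultures or said whether the untreated cultures received the vehicle.

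PRC2 places methyl groups on H3K27 through the SET domain of Ezh1 or Ezh2, which works only in complex with Eed and Suz12. Eed reads H3K27me3 that is already there and stimulates the enzyme, Suz12 holds the complex together, and Rbbp7 or Rbbp4 binds histones. Mtf2 and Phf19 are Polycomb-like subunits that bring the complex to CpG-rich DNA, and Jarid2 marks a separate form of the complex. Kdm6a and Kdm6b remove the mark, and H3K27 freed of methyl groups can be acetylated. In embryos PRC2 holds developmental regulators silent until a lineage calls for them, and dividing progenitors are known to use mainly Ezh2, whereas postmitotic cells rely more on Ezh1.

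Total counts ran from 14982115 to 34383842 per library (median 16238435), and every library held at least 903 counts of *Kdm6a*, 1402 of *Ezh2* and 11 of *Phf19*, the least expressed of the genes. The cultures carried the markers of their label: from D4 to D6 all 10 postmitotic neuron genes rose and 7 of 8 motor neuron lineage genes rose, with *Olig2* falling. Markers of other cells were also detected. All 5 pluripotency genes (*Pou5f1*, *Nanog*, *Zfp42*, *Esrrb* and *Klf4*) were detected in every library, and in each of the 7 groups replicate 1 had the lowest level of all 5, with a summed level of 5.14 to 31.7 FPKM against 34.3 to 79.9 FPKM in replicates 2 and 3. The 8 genes of feeder fibroblasts summed to 20.4 to 76.7 FPKM, with *Fn1* alone at 11.05 to 57.35 FPKM and *Lum* and *Thy1* at 0 in some libraries. The 6 genes of glia and microglia summed to 3.95-5.42 FPKM at D4 and 8.59-10.7 FPKM at D6. From D4 to D6 *Mbp* (means 2.50 and 6.77 FPKM) and *Pdgfra* (0.363 and 1.65 FPKM) rose, while in those groups *Gfap*, *Aqp4* and *Cx3cr1* were at or under 0.18 FPKM. D4H8+GSKJ4 replicate 2 differed most from its own group, with a mean chi-square per gene of 116.68 and 96.66 against its partners, and D5+GSKJ4 replicate 2 listed 39381 genes at 0 against 29339 to 32805 in the other libraries.

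Promoters of some of the genes are shown first. The first 3 were picked by a core E2F motif they hold, and *Jarid2* was picked as a rising gene without a motif. The windows cover 250 bases before to 50 after the RefSeq start site (RefSeq, GRCm38.p6). Capitals mark a core E2F motif or a cell cycle gene homology region (CHR), both known from genes of the cell cycle and searched on both strands. The E2F cores searched were TTCCCGC for the first form, TTGGCGC for the second form and TTCGCGC for the third, and the CHR was TTTGAA. *Ezh2*, *Suz12* and *Phf19* are the 3 of 9 genes with a window in the table that hold an E2F core, and *Jarid2*, which rose from D4 to D6, is given as a window without either motif. *Rbbp7* and *Eed* fell from D4 to D6 (log2 -1.68 and -1.48) but hold no E2F core, and they are not shown. A link between motif and direction was not tested. *Ezh2* lies at chr6:47594981-47595280 (minus strand), *Suz12* at chr11:79992856-79993155 (plus), *Phf19* at chr2:34913927-34914226 (minus) and *Jarid2* at chr13:44730524-44730823 (plus).
Ezh2: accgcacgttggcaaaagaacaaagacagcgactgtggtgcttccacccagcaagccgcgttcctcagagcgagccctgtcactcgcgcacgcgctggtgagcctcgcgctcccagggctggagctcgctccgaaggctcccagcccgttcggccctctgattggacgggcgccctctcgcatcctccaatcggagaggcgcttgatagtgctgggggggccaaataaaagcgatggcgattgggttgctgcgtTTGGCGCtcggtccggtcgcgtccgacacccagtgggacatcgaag
Suz12: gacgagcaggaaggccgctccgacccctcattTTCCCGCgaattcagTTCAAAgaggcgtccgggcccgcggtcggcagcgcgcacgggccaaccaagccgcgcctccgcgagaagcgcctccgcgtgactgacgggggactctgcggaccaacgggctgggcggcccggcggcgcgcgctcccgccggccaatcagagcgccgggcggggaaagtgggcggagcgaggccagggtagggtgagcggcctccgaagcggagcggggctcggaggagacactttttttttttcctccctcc
Phf19: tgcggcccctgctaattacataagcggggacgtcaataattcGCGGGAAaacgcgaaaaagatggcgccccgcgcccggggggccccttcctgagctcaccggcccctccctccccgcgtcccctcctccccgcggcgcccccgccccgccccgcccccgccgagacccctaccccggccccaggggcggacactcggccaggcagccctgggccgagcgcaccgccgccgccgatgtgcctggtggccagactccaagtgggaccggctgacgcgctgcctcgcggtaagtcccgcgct
Jarid2: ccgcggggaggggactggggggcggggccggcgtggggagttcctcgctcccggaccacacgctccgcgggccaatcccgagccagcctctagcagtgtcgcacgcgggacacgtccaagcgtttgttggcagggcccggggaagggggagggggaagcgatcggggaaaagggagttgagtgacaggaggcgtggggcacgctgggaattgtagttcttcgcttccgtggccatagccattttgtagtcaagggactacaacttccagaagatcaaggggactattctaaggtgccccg

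In *Ezh2* the core TTGGCGC sits 5 bases past the start site. In *Suz12* TTCCCGC lies at -218 and TTTGAA, on the other strand, at -203, and in *Phf19* TTCCCGC lies at -208 on the other strand. *Eed* held 2 CHR matches and no E2F core, the second of 2 *Mtf2* windows held 1 CHR, and *Ezh1*, *Kdm6a*, *Rbbp7* and both *Jarid2* windows held neither motif. Over all 32851 promoter windows of the table, 8.07% held any of the 3 E2F cores and 17.9% held a CHR. The windows shown have a GC content of 64.3% (*Ezh2*), 71.0% (*Suz12*), 74.3% (*Phf19*) and 64.3% (*Jarid2*), all above the median of 52.7% over all windows. These matches are a description of letters in the window and do not show that a factor binds there.

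*Kdm6b*, the gene of a demethylase that GSKJ4 inhibits, rose from D4 to D6. Its level was 14.02, 16.10 and 22.49 FPKM in the 3 D4 libraries (17.5 ± 4.41, SD) and 46.38, 35.50 and 38.32 FPKM at D6 (40.1 ± 5.65). Every D6 library lay above every D4 library, and the change was 1.28 on the log2 scale (SE 0.156, 2.42-fold, edgeR quasi-likelihood adjusted p = 7.2e-06). The climb went through 24.20, 23.55 and 25.99 FPKM at D4H8 and 31.53, 30.33 and 36.85 FPKM at D5. The ranges of neighbouring untreated stages did not overlap until D5, whereas D5 and D6 did overlap. No single step passed the test over all libraries (edgeR adjusted p = 0.142, 0.0543 and 0.0563 for the 3 steps), but with the replicate number as a block the steps to D5 (log2 0.42, adjusted p = 0.0356) and to D6 (log2 0.41, adjusted p = 0.0356) passed. Leaving out D4 replicate 3, the highest D4 library, raised the first step to 0.64 with an adjusted p of 0.0365. *Kdm6b* (ENSMUSG00000018476) lies at chr11:69398508-69413675 on the minus strand and shares 286 exonic bases with the antisense gene *Kdm6bos*, which reached at most 2.65 CPM; the strand used in counting was not stated.

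*Kdm6a*, the X-linked demethylase (chrX:18162575-18279936), stayed within 6.77 to 10.89 FPKM in all 21 libraries. It measured 8.20, 8.71 and 8.66 FPKM at D4 and 7.87, 6.77 and 7.67 FPKM at D6. The 3 D6 libraries lay below the 3 D4 libraries by a small margin, and the change of -0.13 (SE 0.116, edgeR adjusted p = 0.339) did not pass the test, although upper-quartile scaling gave -0.28 with an adjusted p of 0.0354. *Uty*, the Y-linked relative of *Kdm6a*, fell by 0.46 on the log2 scale (SE 0.179, edgeR adjusted p = 0.0364), from 3.02-3.67 FPKM at D4 to 2.22-2.36 FPKM at D6, but DESeq2 did not call it. Per kilobase of exon, *Kdm6b* thus stood at 1.71 to 2.60 times *Kdm6a* at D4 and at 5.00 to 5.89 times *Kdm6a* at D6.

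*Ezh2* fell from D4 to D6, while *Ezh1*, the second catalytic subunit, did not pass the test in any stage comparison. *Ezh2* (ENSMUSG00000029687, chr6:47530139-47595341, minus strand) measured 32.67, 33.03 and 35.67 FPKM at D4, 31.71, 33.76 and 37.49 FPKM at D4H8, 25.76, 28.18 and 23.56 FPKM at D5 and 13.75, 17.00 and 16.29 FPKM at D6. D4 and D4H8 overlapped, and from D4H8 on each stage lay wholly below the one before. The fall from D4 to D6 was -1.05 (SE 0.112, 2.06-fold, edgeR adjusted p = 2.1e-06). The step from D4H8 to D5 was -0.40 (SE 0.111, adjusted p = 0.0143) and that from D5 to D6 -0.61 (SE 0.111, adjusted p = 9.3e-04). The first of these steps rested on D4H8 replicate 3, without which it was -0.35 with an adjusted p of 0.0666. *Ezh1* ran from 3.44 to 5.25 FPKM at D4 and from 4.38 to 4.89 FPKM at D6 (log2 0.15, SE 0.154, edgeR adjusted p = 0.406), and this sign turned to -0.01 with upper-quartile scaling. *Ezh1* was the lower of the 2 catalytic genes in all 21 libraries.

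The genes of dividing cells moved in the same comparison. All 12 dividing-cell markers fell from D4 to D6, with a median log2 change of -2.67, and their summed level went from 1109-1213 FPKM at D4 and 1102-1153 FPKM at D4H8 to 339-519 FPKM at D5 and 96.3-250 FPKM at D6. Their part in the fall of *Ezh2* and the other PRC2 genes was not tested. In these bulk libraries fewer dividing cells and less RNA of a gene per cell cannot be told apart.

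The remaining core genes fell too. *Eed* measured 27.77, 26.39 and 27.68 FPKM at D4 and 6.45, 10.34 and 11.56 FPKM at D6, a change of -1.48 (SE 0.177, 2.78-fold, edgeR adjusted p = 5.9e-06). *Rbbp7*, at D4 the most abundant of the 10 genes per kilobase, went from 164.38, 167.80 and 182.86 FPKM to 35.67, 56.47 and 62.86 FPKM, or -1.68 (SE 0.165, 3.20-fold, edgeR adjusted p = 8.8e-07). In both genes the 2 groups did not overlap, and D6 replicate 1, which also had the lowest D6 sums of dividing-cell (96.3 FPKM) and pluripotency genes (5.95 FPKM), was the lowest. *Suz12* went from 30.89, 35.22 and 40.78 FPKM at D4 to 15.32, 20.88 and 20.30 FPKM at D6 (-0.85, SE 0.166, 1.81-fold, edgeR adjusted p = 4.7e-04). *Suz12* was lowest in replicate 1 in 7 of 7 groups, as were all 5 pluripotency genes, and *Eed* and *Rbbp7* were lowest there in 6 of 7. *Ezh2* and *Suz12* (chr11:79993106-80034123) share 174 and 178 exonic bases with opposite-strand lincRNA genes whose counts were not used here. *Rbbp7* (chrX:162760402-162779092) shares 174 exonic bases with *Txlng* on the other strand (up to 47.0 CPM) and *Eed* (chr7:89954654-89980983) 261 bases with *E230029C05Rik* (up to 5.48 CPM), and reads from such partners could not be separated.

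Of the accessory subunits, *Jarid2* rose while *Mtf2* and *Phf19* fell. *Jarid2* (chr13:44729474-44921643) measured 9.71, 12.75 and 15.00 FPKM at D4, 12.38, 14.09 and 14.78 FPKM at D4H8, 25.36, 21.85 and 21.03 FPKM at D5 and 23.50, 22.22 and 23.20 FPKM at D6. The level was thus low in all 6 libraries up to D4H8 and high in all 6 from D5, with no overlap. The step at D5 was 0.74 (SE 0.131, 1.66-fold, edgeR adjusted p = 8.5e-04) and passed in all 15 alternatives, and D6 exceeded D4 by 0.96 (SE 0.131, 1.94-fold, adjusted p = 2.1e-05). *Mtf2* (chr5:108065674-108109004) went from 33.79-41.42 FPKM at D4 to 26.06-29.09 FPKM at D6, a fall of -0.40 (SE 0.119, 1.32-fold, edgeR adjusted p = 0.00906), the smallest of those that passed. It shares 395 exonic bases with *Tmed5* on the other strand, which reached 92.9 CPM, so its level is uncertain.

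*Phf19* (chr2:34893757-34914026) fell too and varied widely between replicates. Its level was 1.05, 2.04 and 2.51 FPKM at D4, 0.86, 2.31 and 1.72 FPKM at D4H8, 0.50, 1.07 and 1.17 FPKM at D5 and 0.13, 0.56 and 0.89 FPKM at D6. Replicate 1 was the lowest at every stage, with 11 counts at D6. The fall from D4 to D6 was -1.75 (SE 0.524, 3.36-fold, edgeR adjusted p = 0.00963), and it was -1.56 (adjusted p = 1.7e-04) with replicates 2 and 3 alone. The summed pluripotency genes were also lowest in replicate 1 of all 7 groups, and from D4 to D6 none of the 5 passed the test (median log2 change -0.30). Their part in the level of *Phf19* was not tested.

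**Figure D1:**
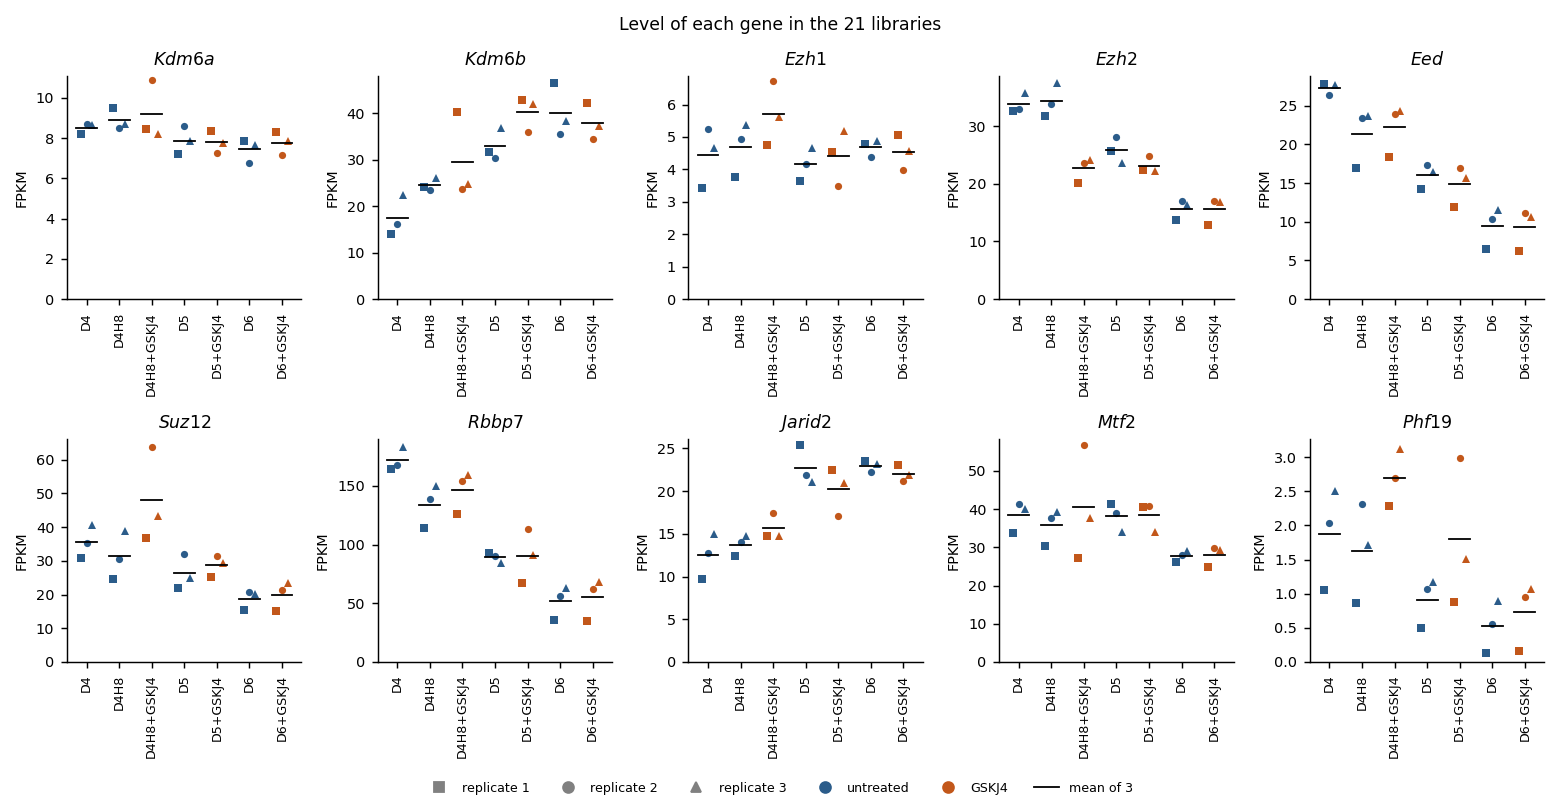
Level of the 10 genes in each library (vertical axis, FPKM from 0; horizontal axis, the 7 groups). Squares, circles and triangles are replicates 1, 2 and 3, blue is untreated, orange is GSKJ4 and lines are means of 3: from untreated D4 to untreated D6 *Kdm6b* and *Jarid2* are higher and *Ezh2*, *Eed*, *Suz12*, *Rbbp7*, *Mtf2* and *Phf19* lower. *Suz12*, *Mtf2* and *Phf19* have their highest means at D4H8+GSKJ4 (48, 40.6 and 2.7 FPKM). *Kdm6a* and *Ezh1* stay within 6.77-10.89 and 3.44-6.72 FPKM.

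From D4 to D6, then, 2 of the 10 genes rose and 6 fell in edgeR's test (Benjamini-Hochberg adjusted p under 0.05 over 17519 genes), where 32.9% of all genes rose and 31% fell. The median log2 change was -0.63 over the 10 genes and -0.04 over all genes tested. The same 8 genes passed with each of the 6 libraries left out in turn and with replicates 2 and 3 alone, a subset chosen after the values of replicate 1 were seen, in which 60.3% of all genes passed. One fit over all 21 libraries lost *Mtf2* (adjusted p = 0.0754).

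The change came in steps. None of the 10 passed from D4 to D4H8 in edgeR, when 4.06% of all genes rose and 0.32% fell. DESeq2 also called none of them, beside 1139 of the 34033 genes it tested. At an unadjusted p under 0.05, *Kdm6b* was higher and *Eed* and *Rbbp7* lower, as were 10.9% (higher) and 5.66% (lower) of all genes. From D4H8 to D5 *Jarid2* rose and *Ezh2* and *Rbbp7* (-0.58, SE 0.161, edgeR adjusted p = 0.0152) fell, against 17.2% and 10.5% of all genes. With the replicate block *Kdm6b* and *Phf19* (-0.83, adjusted p = 0.0356) joined them, giving 5 of 10 against 30.9% of all genes. With replicates 2 and 3 alone 6 passed, *Eed* included (-0.46, edgeR adjusted p = 0.00598), against 28.3% of all genes. Without D4H8 replicate 3 only *Jarid2* passed, and without D4H8 replicate 2 *Rbbp7* did not (adjusted p = 0.0506), whereas without D4H8 replicate 1 *Eed* passed (-0.53, adjusted p = 0.0494).

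From D5 to D6 the 4 genes that passed all fell: *Ezh2*, *Eed* (-0.65, SE 0.175, edgeR adjusted p = 0.0108), *Rbbp7* (-0.69, SE 0.161, adjusted p = 0.00499) and *Mtf2* (-0.35, SE 0.119, adjusted p = 0.0363). Of all genes 19.2% rose and 15.1% fell in that step. The block added *Kdm6b* and *Suz12* (-0.38, adjusted p = 0.0421), giving 6, against 38% of all genes. The call of *Mtf2* was lost without any one of D5 replicates 1 and 2 and D6 replicates 1, 2 and 3, at -0.36 to -0.26 with adjusted p of 0.0709 to 0.118, and it held in 6 of 15 alternatives. Without D6 replicate 2 *Kdm6b* passed (0.50, adjusted p = 0.042). *Jarid2* passed at the step to D5 and *Eed* and *Mtf2* at the step to D6, and the difference between the 2 steps was not tested.

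The balance of eraser to writer was taken as the ratio of FPKM within a library and is given with no test. *Kdm6b* to *Ezh2* stood at 0.429, 0.487 and 0.631 at D4, at 0.763, 0.698 and 0.693 at D4H8, at 1.22, 1.08 and 1.56 at D5 and at 3.37, 2.09 and 2.35 at D6. Each stage lay wholly above the one before. In FPKM *Ezh2* exceeded *Kdm6b* in all 6 libraries up to D4H8, whereas *Kdm6b* exceeded *Ezh2* in all 6 from D5. FPKM divides by the merged exons of all annotated transcripts (6678 bases for *Ezh2*, 6954 for *Kdm6b*). A ratio of 1 therefore need not mean equal RNA, and only the change between stages is free of that divisor. The mean log2 ratio rose by 2.32 from D4 to D6 (-0.97 ± 0.283 to 1.35 ± 0.360, SD, n = 3), and by 2.12 to 2.48 with any one library left out. The *Kdm6a* to *Ezh2* ratio moved by 0.91 and the *Ezh1* to *Ezh2* ratio by 1.21 over the same interval, without overlap. *Ezh1* stood at 0.105 to 0.159 of *Ezh2* at D4 and at 0.258 to 0.348 at D6. Between the Polycomb-like subunits, *Phf19* to *Mtf2* went from -4.45 ± 0.516 to -6.11 ± 1.37 on the log2 scale, a difference of -1.66 that ranged from -2.20 to -0.89 with 1 library left out. RNA levels do not give the amounts of protein.

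**Figure D2:**
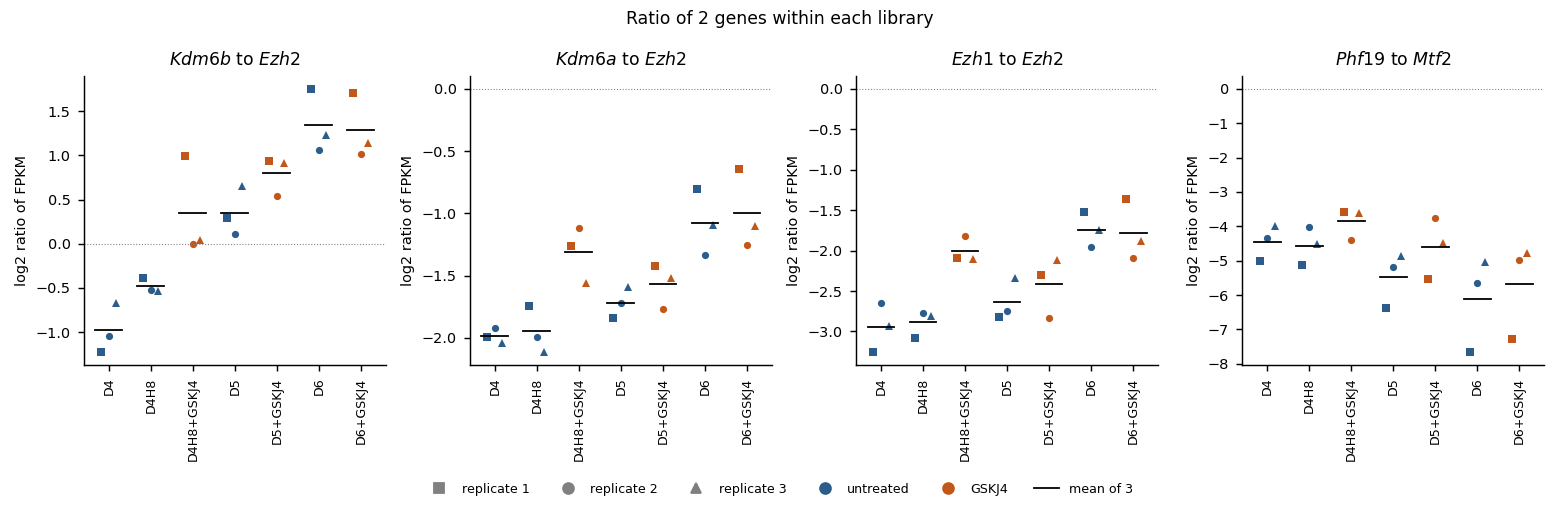
Log2 ratio of FPKM of 2 genes within each library (vertical axes, one scale per panel, with a dotted line at equal FPKM) in the 7 groups (horizontal axis). Symbols are replicates and lines are means of 3: the *Kdm6b* to *Ezh2* ratio crosses 0 between D4H8 and D5 in untreated libraries, and the 3 D4H8+GSKJ4 libraries lie at -0.00 to 0.99, above the -0.53 to -0.39 of D4H8.

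GSKJ4 blocks the enzymes and not their genes, so the treated libraries show whether the RNA of the demethylases or of PRC2 moved when the activity was inhibited. At D4H8, where 3.96% of all 16269 genes passed, none of the 10 did in edgeR, and 1, *Ezh2*, had an unadjusted p under 0.05, as did 25.1% of all genes. *Ezh2* measured 20.21, 23.66 and 24.20 FPKM in the treated libraries against 31.71, 33.76 and 37.49 FPKM in the untreated ones. It was the only one of the 10 genes whose treated libraries lay outside the untreated range, as 32.9% of all genes did. The difference was -0.63 (SE 0.173, 1.54-fold, edgeR adjusted p = 0.0716). It passed in 4 of 14 alternatives, namely DESeq2 (adjusted p = 0.0326), no filter (0.042), one fit over all 21 libraries (0.00398) and without D4H8+GSKJ4 replicate 2 (log2 -0.72, adjusted p = 0.0215), and it missed with replicates 2 and 3 alone (-0.57, adjusted p = 0.305) and with the replicate block (0.0545).

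Dividing-cell genes were lower beside it. Their summed level was 688, 846 and 879 FPKM in the treated against 1102, 1127 and 1153 FPKM in the untreated D4H8 libraries, and 2 of the 12 passed, *Rrm2* (-1.24, edgeR adjusted p = 0.013) and *Pcna* (-0.94, adjusted p = 0.0331). Of the 8 motor neuron lineage genes 5 fell, *Olig2* by 3.91 on the log2 scale (edgeR adjusted p = 0.0103). Feeder genes summed to 61.6-76.7 FPKM with GSKJ4 against 31.1-48.7 FPKM without, and pluripotency genes to 31.7-79.9 against 10.4-53.1 FPKM. Most of the feeder sum was *Fn1* (means 53.3 and 31.8 FPKM), but the means of the other feeder genes were higher with GSKJ4 too, among them *Col1a1* (6.59 and 2.69 FPKM). The median log2 difference was 0.72 over the 6 feeder genes tested and 0.02 over all genes. None of the 6 feeder genes tested or of the pluripotency genes passed in edgeR. An unadjusted p under 0.05 was found for 2 feeder genes and 1 pluripotency gene, beside 25.1% of all genes. DESeq2 called 1 feeder gene, beside 6.28% of all genes. The part of these cells in the *Ezh2* value was not tested.

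None of the other members had an unadjusted p under 0.05. *Suz12* measured 36.92, 63.81 and 43.25 FPKM with GSKJ4 against 24.63, 30.53 and 38.79 FPKM without (0.61, SE 0.272, edgeR adjusted p = 0.20), and the highest of these values came from replicate 2, which stood apart. Without that library the difference was 0.27 (adjusted p = 0.349). *Phf19* measured 2.29, 2.69 and 3.12 FPKM against 0.86, 2.31 and 1.72 FPKM (0.71, SE 0.349, edgeR adjusted p = 0.237), and the difference was 0.40 without D4H8 replicate 1, the lowest library. *Kdm6b* overlapped, at 40.23, 23.61 and 24.80 FPKM against 24.20, 23.55 and 25.99 FPKM, and only replicate 1 was high. *Kdm6a*, the second target of the inhibitor, differed by 0.02 (SE 0.203), *Ezh1* by 0.26 (SE 0.227), *Jarid2* by 0.16 (SE 0.182), *Mtf2* by 0.18 (SE 0.289), *Rbbp7* by 0.10 (SE 0.188) and *Eed* by 0.03 (SE 0.203), with edgeR adjusted p of 0.494 to 0.962. *Mtf2* at 0.18 and *Kdm6a* at 0.02 turned to -0.23 and -0.19 without treated replicate 2.

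The ratios at D4H8 followed *Ezh2*. *Kdm6b* to *Ezh2* was 1.99, 0.998 and 1.02 with GSKJ4 against 0.763, 0.698 and 0.693 without, a mean log2 difference of 0.82 that ranged from 0.50 to 0.99 with 1 library left out. *Ezh1* to *Ezh2* differed by 0.88 and *Kdm6a* to *Ezh2* by 0.63, both without overlap. *Kdm6b* to *Kdm6a* overlapped between the groups (0.19), and its sign turned without treated replicate 1 (-0.11). At D5 that ratio was 5.11, 4.95 and 5.40 with GSKJ4 and 4.39, 3.53 and 4.69 without, with no overlap.

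At D5 and D6 the treated and untreated libraries of all 10 genes overlapped. edgeR called none of the 10 at either stage, with 0.00613% (D5) and 0% (D6) of all genes passing. DESeq2 called none of the 10 either, beside 65 of 30265 genes at D5 and 1 of 30650 at D6. None of the 10 had an unadjusted p under 0.05 in edgeR, against 4.7% and 1.36% of all genes. The libraries failed to overlap for 11.6% of all genes at D5 and 5.3% at D6. *Kdm6b* measured 42.75, 36.00 and 41.97 FPKM with GSKJ4 against 31.53, 30.33 and 36.85 FPKM without at D5 (0.25, SE 0.146, edgeR adjusted p = 0.976). *Phf19* had the largest differences, 0.92 (SE 0.486, adjusted p = 0.976) at D5, where treated replicate 2 held 2.99 FPKM, and 0.45 (SE 0.768, adjusted p = 1) at D6. Without that treated library the D5 value was 0.35, and the D6 value ran from 0.01 (without D6 replicate 1) to 1.03 (without D6 replicate 3). *Ezh2* at D6 measured 12.93, 16.95 and 16.90 FPKM with GSKJ4 and 13.75, 17.00 and 16.29 FPKM without. At D6 same-numbered libraries resembled each other closely, and with the replicate block 257 genes (1.58%) passed in place of 0, none of them among the 10.

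**Figure D3:**
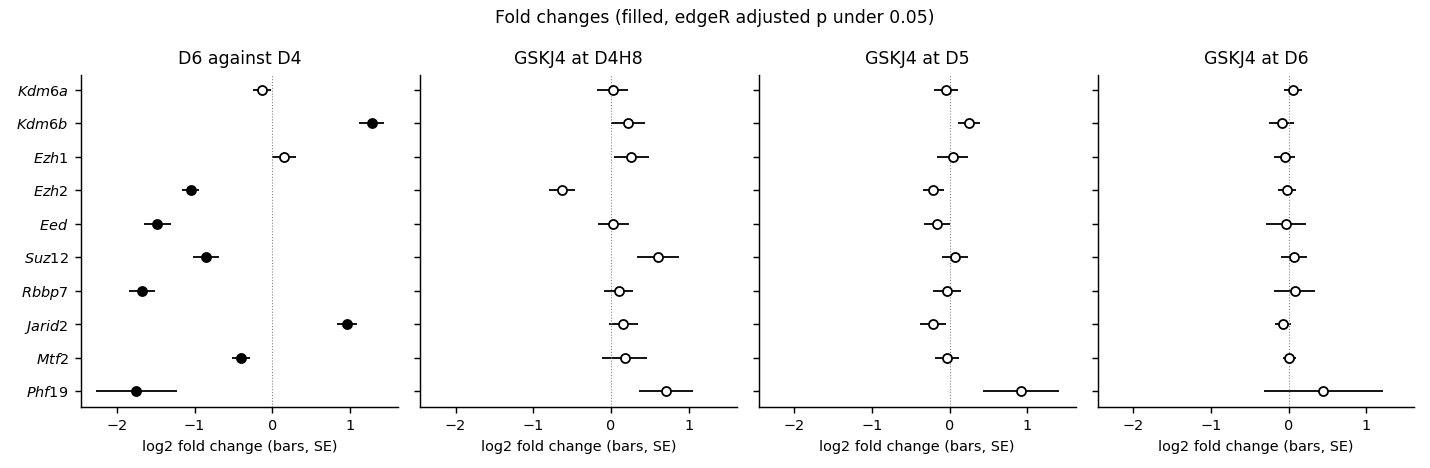
Log2 fold change of the 10 genes (horizontal axes, bars show SE) for D6 against D4 and for GSKJ4 against untreated at D4H8, D5 and D6. Filled points passed edgeR's test at an adjusted p under 0.05: 8 do so in the first panel and 0 in the other panels, where *Phf19* lies furthest from 0 at each stage (0.71, 0.92 and 0.45).

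Whether the effect of GSKJ4 differed between stages was tested directly. None of the 10 passed in edgeR for D5 minus D4H8 (0.249% of all 18103 genes), D6 minus D4H8 (0.735%) or D6 minus D5 (0%). DESeq2 called none of the 10 either, beside 238, 580 and 1 of the 35329 genes it tested. An unadjusted p under 0.05 was found for 0, 1 and 0 of the 10, against 10%, 13.7% and 1.98% of all genes. The lowest p belonged to *Ezh2*, whose effect at D6 exceeded that at D4H8 by 0.62 (SE 0.196, unadjusted p = 0.00547, edgeR adjusted p = 0.161, adjusted p of 0.0698 to 0.368 over 20 alternatives). For D5 minus D4H8 the difference of *Ezh2* was 0.41 (SE 0.196, adjusted p = 0.501).

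The steps between treated stages were compared in the 9 treated libraries. From D4H8+GSKJ4 to D5+GSKJ4 none of the 10 passed in edgeR, where 14.2% of all genes did, and 3 had an unadjusted p under 0.05 (29.3% of all genes), *Suz12* (-0.79, SE 0.254, adjusted p = 0.0575), *Rbbp7* (-0.73, SE 0.249, adjusted p = 0.071) and *Eed* (-0.62, SE 0.234, adjusted p = 0.101). DESeq2 called the first 2 of these and 11.1% of the 32444 genes it tested. Without D4H8+GSKJ4 replicate 1 *Suz12* passed (-0.97, edgeR adjusted p = 0.0304) and so did *Kdm6b*, which was higher (adjusted p = 0.0482). Without D4H8+GSKJ4 replicate 2 *Suz12* was at -0.44 (adjusted p = 0.143), and *Mtf2* turned from -0.12 to 0.30 (adjusted p = 0.315). From D5+GSKJ4 to D6+GSKJ4 none passed in edgeR, against 11.9% of all genes. DESeq2 called none of the 10 there, beside 3222 of the 32444 genes it tested. *Ezh2* (-0.46, SE 0.175, adjusted p = 0.114), *Eed* (-0.55, SE 0.235, adjusted p = 0.152) and *Rbbp7* (-0.60, SE 0.248, adjusted p = 0.142) had an unadjusted p under 0.05 there, as did 27.6% of all genes. *Ezh2*, which lost 0.40 between the untreated stages D4H8 and D5, averaged 22.7 FPKM at D4H8+GSKJ4 and 23.1 FPKM at D5+GSKJ4.

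Across all 21 libraries the members other than *Kdm6a* and *Ezh1* fell into 2 directions. Pearson's r of log2 CPM was -0.83 between *Kdm6b* and *Ezh2*, -0.89 between *Kdm6b* and *Eed* and 0.82 between *Kdm6b* and *Jarid2*. *Eed* and *Rbbp7* ran closest (0.99), and *Suz12* followed both (0.86 and 0.87). *Phf19* ran closer to *Suz12* and *Rbbp7* (0.82 each) than to *Ezh2* (0.55), and *Ezh1* had values within 0.31 of 0 with each of the other PRC2 members. The values of *Kdm6a* ran from -0.32 with *Kdm6b* to 0.55 with *Ezh1*. These 21 points share stages, cultures and depth, so the values describe the libraries only.

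The genes most like each of 4 members, among 14810 genes compared over the 21 libraries, were then listed. For *Ezh2* they were *Cbx1* (0.983), which encodes a heterochromatin protein, *Rbbp4* (0.972), *Hnrnpu* (0.971) and *Anp32e* (0.970). For *Kdm6b* they were *Nol4l* (0.963), *Nxph4* (0.959), *Sort1* (0.957) and *Ptprs* (0.954). For *Phf19* they were *Gca* (0.968), *Trim6* (0.967), *Arpc1b* (0.965) and *Dmrt1* (0.961), and for *Ezh1* the likeness was lower, with *Trim24* (0.812), *Phlpp2* and *Depdc5* (0.806 each) and *Prr14l* (0.801).

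**Figure D4:**
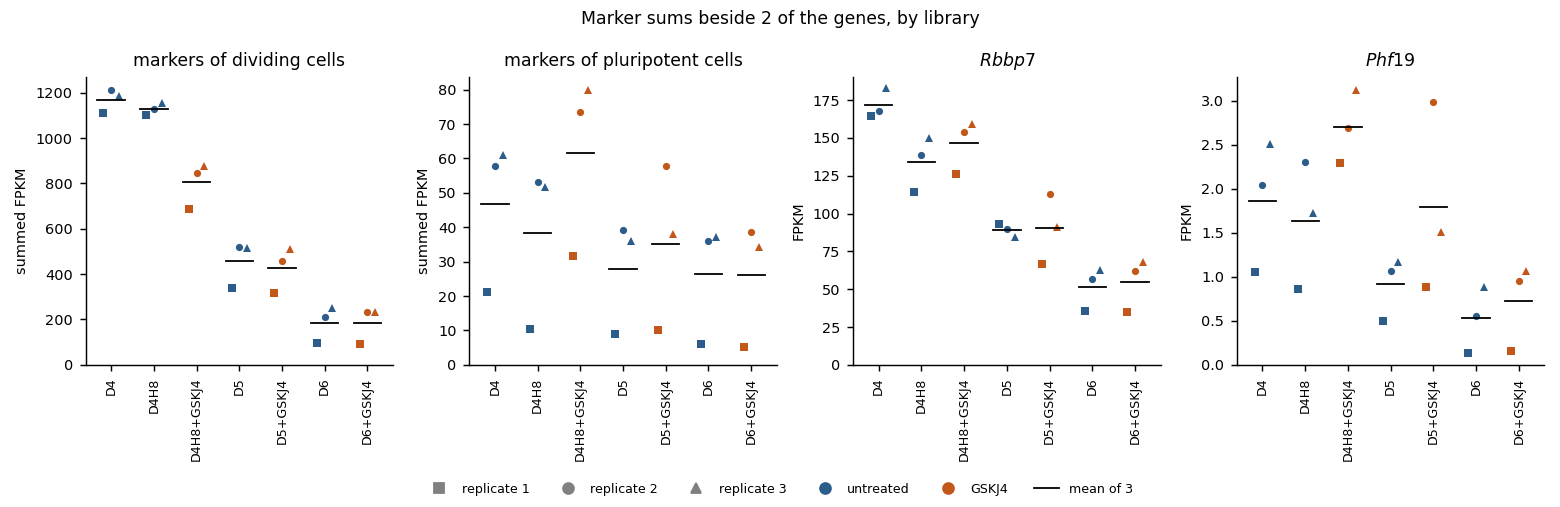
Summed FPKM of 12 markers of dividing cells and of 5 markers of pluripotent cells beside the FPKM of *Rbbp7* and *Phf19* (vertical axes from 0) in the 7 groups (horizontal axis). Symbols are replicates and lines are means of 3: replicate 1 (squares) has the lowest pluripotency sum and the lowest *Phf19* in all 7 groups, and the dividing-cell sum drops from 1109-1213 at D4 to 96.3-250 at D6.

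The other genes of the pathway moved in both directions between D4 and D6. Of 7 further PRC2 subunits and cofactors, 2 rose and 3 fell, where 32.9% of all genes rose and 31% fell. *Lcor*, whose locus also gives the PRC2 cofactor Pali1, rose by 1.63 (SE 0.190, 3.10-fold, edgeR adjusted p = 4.5e-06), from 2.92-3.47 to 7.85-11.28 FPKM, and *Phf1*, the third Polycomb-like gene, rose by 1.17 (SE 0.178, 2.24-fold, adjusted p = 5.7e-05), from 2.28-3.20 to 5.55-6.29 FPKM. *Phf1* and *Phf19* thus moved in opposite directions. *Epop* fell by 1.29 on the log2 scale (SE 0.206, 2.45-fold, adjusted p = 8.3e-05), from 31.30-52.29 to 10.85-20.15 FPKM, and *Rbbp4*, the paralogue of *Rbbp7*, by 0.78 (SE 0.103, 1.72-fold, adjusted p = 1.4e-05), from 57.62-63.52 to 30.77-36.20 FPKM.

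PRC1, the complex that binds H3K27me3 and ubiquitinates histone H2A, had 9 genes rise and 4 fall of 19 from D4 to D6, with a median log2 change of 0.17. Of all genes 32.9% rose and 31% fell in that comparison. *Cbx8*, a chromodomain reader of the mark, rose by 1.52 (SE 0.220, 2.87-fold, edgeR adjusted p = 3.5e-05). *Pcgf5* (-1.54, SE 0.386, adjusted p = 0.00312) and *Ring1*, a catalytic subunit (-0.73, SE 0.149, adjusted p = 6.6e-04), fell most. In the Kmt2c and Kmt2d complex, in which Kdm6a resides, 8 of 9 genes could be tested, and 2 rose and 5 fell, beside the same shares of all genes. *Kmt2c* (1.35, SE 0.155, edgeR adjusted p = 4.1e-06) and *Ncoa6* (0.72, SE 0.186, adjusted p = 0.00396) rose, whereas *Dpy30* (-1.28, SE 0.170, adjusted p = 1.6e-05) and *Paxip1* (-1.01, SE 0.168, adjusted p = 1.2e-04) fell. Of the H3K27 acetyltransferases, *Crebbp* rose (0.68, SE 0.170, edgeR adjusted p = 0.00295) and *Ep300* did not pass (0.28, SE 0.158, adjusted p = 0.139). With GSKJ4 no gene of these lists passed in edgeR at D4H8, D5 or D6. At D4H8 an unadjusted p under 0.05 was found for 4 PRC1 genes, 2 genes of the Kmt2c and Kmt2d complex, 1 acetyltransferase gene and 0 other PRC2 genes, beside 25.1% of all genes. DESeq2 called 3, 0, 1 and 0 of them and 6.28% of the 31166 genes it tested. At D5 an unadjusted p under 0.05 was found for 1 gene of the Kmt2c and Kmt2d complex (4.7% of all genes) and at D6 for 0 (1.36%). DESeq2 called 0 at both stages, beside 65 of 30265 genes at D5 and 1 of 30650 at D6.

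**Figure D5:**
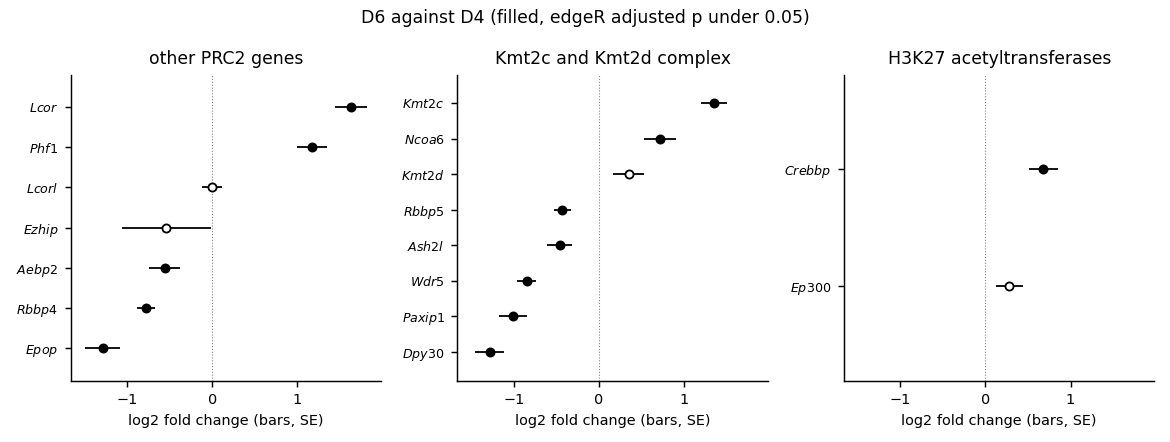
Log2 fold change from D4 to D6 (horizontal axes, bars show SE) of the tested genes of 3 related groups, ordered by size. Filled points passed edgeR's test at an adjusted p under 0.05: 5 of 7 other PRC2 genes, 7 of 8 genes of the Kmt2c and Kmt2d complex and 1 of 2 H3K27 acetyltransferases do so, in both directions except for the last. Of all genes 32.9% rose and 31% fell.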

How the data were processed

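PolyA RNA was sequenced from 21 libraries, 7 groups of 3 that the labels call biological replicates; if these shared a culture source, p-values measure only the spread between these samples. Per the study's methods, the authors trimmed reads with Fastp, aligned them to mm10 with Hisat2, sorted them with SAMtools and counted them with HTSeq-count; the strand setting is not given in the sources used here. The deposited table holds raw counts per gene and, made from them by the authors, FPKM (fragments scaled to exon length and library size); FPKM recomputed from the counts differed by at most 0.005. Deposited counts were tested and FPKM used for levels and ratios. No gene lacking a symbol is named (260 of 55400).

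Counts were fitted with edgeR 4.0.16 (R 4.3.3, TMM scaling, filterByExpr with a minimum count of 10, quasi-likelihood test, Benjamini-Hochberg adjustment over all genes tested, two-sided, threshold 0.05). Stages were compared in the 12 untreated libraries, GSKJ4 within each stage, treated steps in the 9 treated libraries, and differences between GSKJ4 effects in the 18 libraries from D4H8 on. DESeq2 1.42.0, other scalings, filters and samples were alternatives. Tests were checked on simulated counts. All 10 genes passed the filter in every comparison. Besides them, at most the 2 genes of each related list with the largest rise and the 2 with the largest fall among those called from D4 to D6 or with GSKJ4 at D4H8 were named, with Uty, marker genes called with GSKJ4, and the 4 genes with the highest Pearson r to Kdm6b, Ezh2, Ezh1 and Phf19 (log2 CPM, prior count 2). Some genes of these lists are not reported here. The members and lists were chosen with earlier results of these data known. The main fits held no replicate block, since no source used here says that replicate numbers pair the libraries. The block was an alternative. Correlations of same-numbered deviations over 0.1 for all 3 pairs were taken as a sign of pairing, which the main p-values ignore. This cut was met for D5 against D4H8 (0.136 to 0.314), D6 against D5 (0.144 to 0.31) and GSKJ4 at D6 (0.316 to 0.663). Elsewhere it was not met. The same-numbered library was still the closest for each replicate in D4H8 against D4, D6 against D4 and GSKJ4 at D5. For GSKJ4 at D4H8 the correlations were 0.44, 0.0731 and 0.255, so a shared replicate effect may be present there too. Replicates differed by more than sampling noise (mean chi-square per gene 6.94 to 116.68 over 21 pairs), so none looked like a copy of another in its group. All libraries were kept, also D4H8+GSKJ4 replicate 2, which stood apart. Promoter windows came from RefSeq, with 9 of the 10 genes matched. Python 3.11.15, pandas 2.3.3, numpy 2.4.6 and matplotlib 3.10.9 were used.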

Additional observations from a re-analysis of the deposited data

How the results depend on the processing

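Of 1000 refits of single members under other settings, 929 kept their direction and side of the threshold, 5 lost a call, 34 gained one and 32 turned in sign; of 900 with 1 library left out the numbers were 789, 8, 6 and 97. None of the 129 values that turned came from a result that had passed. The number of members that passed from D4 to D6 was 8 with any library left out, and 0 to 1 (D4 to D4H8), 1 to 4 (D4H8 to D5), 3 to 4 (D5 to D6), 0 to 1 (GSKJ4 at D4H8) and 0 to 2 (D4H8+GSKJ4 to D5+GSKJ4) elsewhere. From D4H8 to D5, 6 passed with no filter, 6 with replicates 2 and 3 of each group (added after seeing the data), 5 with the replicate block and 5 with only the 2 stages compared, against 3. Of all genes 5001 of 34033, 5002 of 17700, 5419 of 17519 and 4653 of 16298 passed in these settings, against 4861 of 17519. With GSKJ4 at D4H8, 1 passed with one fit over all libraries, with DESeq2 and with no filter, beside 2048 of 18349, 1957 of 31166 and 2287 of 31166 genes. From D4H8+GSKJ4 to D5+GSKJ4, 3 passed with one fit, 2 with DESeq2, 2 with no filter, 1 with at least 10 counts in every library and 3 with the replicate block. Of all genes 4956 of 18349, 3600 of 32444, 3320 of 32472, 2541 of 13022 and 2761 of 17217 passed there. From D5+GSKJ4 to D6+GSKJ4, 3 passed with one fit and 1 with the block, beside 4587 of 18349 and 2543 of 17217 genes. Where the cut for pairing was not met, the block left 0 members for D4H8 against D4, 8 for D6 against D4 and 0 for GSKJ4 at D4H8 and D5. Of all genes 945, 11672, 2274 and 4 passed there. The cause of these moves was not tested.

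Signs turned for *Ezh1* from D4 to D6 (-0.01 with upper-quartile scaling, -0.01 with replicates 2 and 3) and with GSKJ4 at D4H8 for *Kdm6a* (-0.00 with no filter, -0.00 with the block) and *Kdm6b* (-0.03 with replicates 2 and 3). With 1 library left out the GSKJ4 values at D4H8 ran from -0.19 to 0.13 (*Kdm6a*), -0.04 to 0.36 (*Kdm6b*), -0.09 to 0.17 (*Eed*), -0.23 to 0.41 (*Mtf2*), -0.00 to 0.21 (*Rbbp7*) and -0.11 to 0.46 (*Kdm6b* to *Kdm6a* ratio). Over all genes, upper-quartile scaling from D4 to D6 moved the median from -0.039 to -0.191 and the calls from 5761 higher and 5427 lower to 5144 and 6342.

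Counts over all genes moved with the setting. D4 to D4H8 had 767 (422 with one fit, 1319 with no filter, 350 to 743 with 1 library left out) and D4H8 to D5 4861 (3218 with one fit, 3648 to 4513 with 1 left out). GSKJ4 at D4H8 had 644 (2048 one fit, 1957 DESeq2, 2287 no filter, 2274 replicate block, 72 replicates 2 and 3, 43 to 1746 with 1 library left out), at D5 1 (9, 65, 128, 4 and 0, and 1 to 6 with 1 left out) and at D6 0 (0, 1, 0, 257 and 0, and 0 with any left out). The treated steps had 2452 (4956 one fit, 1220 replicates 2 and 3, 1124 to 2274 with 1 left out) and 2057 (4587 one fit, 3222 DESeq2, 3110 no filter, 849 replicates 2 and 3, 737 to 1878 with 1 left out). Differences of GSKJ4 effects had 45 for D5 minus D4H8 (238 DESeq2, 351 no filter, 185 block, 101 replicates 2 and 3, 16 to 172 with 1 left out), 133 for D6 minus D4H8 (580 DESeq2, 626 no filter, 208 at least 10 counts, 491 block, 40 to 284 with 1 left out) and 0 for D6 minus D5 (1 DESeq2, 13 no filter, 0 to 1 with 1 left out). Depth limits *Phf19* most, with 11 to 247 counts.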
